A study of Homo sapiens with 4 samples.

Results

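The genes described here are death receptors and related receptors, with signalling partners. The receptors are FAS, TNFRSF10A, TNFRSF10B, TNFRSF10C, TNFRSF10D and EDA2R, and the partners FADD, CASP8 and CFLAR. The 9 genes were chosen by name and matched by Ensembl identifier. A row of counts was used for 7 of them, among 25693 human genes in all, and TNFRSF10A and TNFRSF10D were not analysed here. The cells were NGP, an established human neuroblastoma line with wild-type p53 and amplified MYCN, serum-starved for synchrony and then kept for 24 h in Nutlin-3 or in its ethanol solvent. Nutlin-3 blocks the binding of MDM2 to p53. Each treatment had 2 libraries, with ERCC spike-in RNA diluted 1000-fold in one and 10000-fold in the other, and both arms shared the line and the serum removal.

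Death receptors are members of the TNF receptor family that carry a signal from the cell surface to caspases. FAS and the TRAIL receptors TNFRSF10A (DR4) and TNFRSF10B (DR5) bind the adaptor FADD through their death domains, FADD recruits caspase 8, and CFLAR (c-FLIP) competes with caspase 8 for that place. TNFRSF10C and TNFRSF10D are decoys that bind TRAIL without a working death domain, and EDA2R (XEDAR) binds the A2 form of ectodysplasin. FAS, TNFRSF10B and EDA2R are known targets of p53, and loss of caspase 8 expression is well known in neuroblastoma.

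Stretches of FAS and CASP8 are shown because each holds an exact match to the p53 half-site, one beside a gene that was higher in Nutlin-3 and one beside a gene that was hardly counted. One of EDA2R is shown because this gene was higher with no such match in it. All 3 are RefSeq sequences of GRCh38.p14, written 5′ to 3′ along the gene, with the half-site in capitals.
FAS, chr10:88991299-88991328, plus strand: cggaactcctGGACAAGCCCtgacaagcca
CASP8, chr2:201257904-201257933, plus strand: ctttccaataAAGCATGTCCagcgctcggg
EDA2R, chrX:66639299-66639519, minus strand: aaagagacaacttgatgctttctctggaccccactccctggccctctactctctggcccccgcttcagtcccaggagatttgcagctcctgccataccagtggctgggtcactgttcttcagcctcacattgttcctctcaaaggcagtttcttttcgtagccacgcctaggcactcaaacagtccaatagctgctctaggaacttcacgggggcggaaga

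The half-site pattern has 10 letters and reads the same on both strands, so 1 search covers both. It was looked for in windows from 250 bases before to 50 after each RefSeq start. Of 35116 such windows 2329 held a match, or 6.63%. The 13 windows of FAS, EDA2R, FADD, CASP8 and CFLAR held 2. The FAS match lies 727 bases past the annotated FAS start and 21 bases from that of ACTA2, the smooth muscle actin gene that runs the other way. In GENCODE release 29 it is exonic in 3 transcripts of ACTA2 or FAS and intronic in 11 of FAS, 4 of them coding. The CASP8 match is intronic in 8 CASP8 transcripts, 7 of them coding, and lies 121 bases before an inner start. A match is a match of letters and shows no binding.

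The table had 250 columns per treatment, each named by 12 bases and the treatment, and the names did not tell the 2 libraries of a treatment apart. Each treatment was therefore 1 pool, no test between treatments was possible, and no difference has a replicate check. Of the 250 names in a treatment 219 occurred in both. The pools held 1342134 human counts in ethanol and 1301232 in Nutlin-3. Column totals fell into 2 classes: 113 large columns per treatment with 5288 to 13502 counts, and 137 small ones with 253 to 3598. Of the nonzero values of large columns 91.7% were a 1 in ethanol, and 92.3% in Nutlin-3, over the 14830 genes that passed the filter on low counts. A mean over 2 counts per large column was reached by 0.958% of these genes in ethanol and 0.883% in Nutlin-3. Whether this limited how far a gene already in most ethanol columns could be higher was not tested. MDM2, itself a p53 target, had 504 counts in Nutlin-3 against 315. It was in all 113 large ethanol columns, where it had 227 counts, against 377 in the large Nutlin-3 columns. All 10 adrenergic neuroblastoma markers were counted, from 235 counts in both pools together upwards. Of 13 markers of immune, endothelial, fibroblast and epithelial cells 7 had a row, with 66 counts in ethanol and 85 in Nutlin-3 in all, and PTPRC, PECAM1 and KRT5 were not analysed here. COL1A1 made up 29 and 47 of these counts, and the part of this difference in the results was not tested.

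FAS, TNFRSF10B and EDA2R had more counts in Nutlin-3 than in ethanol and the adaptor FADD nearly the same number in both, while CASP8 and its inhibitor CFLAR were almost uncounted. The log2 fold changes of the 3 receptors were 3.30, 2.34 and 1.34, and that of FADD 0.02. CASP8 and CFLAR gave 4 counts in ethanol and 0 in Nutlin-3 between them. Of the 7 genes 4 passed the filter and 3 of these reached a log2 fold change of at least 1. Over all genes past the filter 3.14% did so. With ERCC counts as library size, which put the median of all genes at -0.47, EDA2R was at 0.87 and 2 members reached 1. The ERCC sums, 2989 in ethanol and 4007 in Nutlin-3, mix 2 dilutions in shares that the column names do not give. FAS passed the filter only through its Nutlin-3 count. At or below -1 there was 0 of the 4, against 2.1% of all genes. The counting interval lay above 0 for 3 of the 4 and below 0 for 0, against 4.55% and 3.57% of all genes. In large columns the same 4 passed, with 3 at or above 1 and 0 at or below -1, beside backgrounds of 2.98% and 1.97%, and with 3 intervals above 0 and 0 below it, beside 3.94% and 2.95%. In small columns 0 members passed, where 5.38% and 5.04% of genes went past 1 and -1 and 3.51% and 2.9% had an interval above or below 0. The median of the 4 was 1.84 and that of all genes -0.0011. Folds carry 0.5 added counts per sum, and each range in brackets is a 95% counting interval that holds no variation between cultures.

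**Figure D1:**
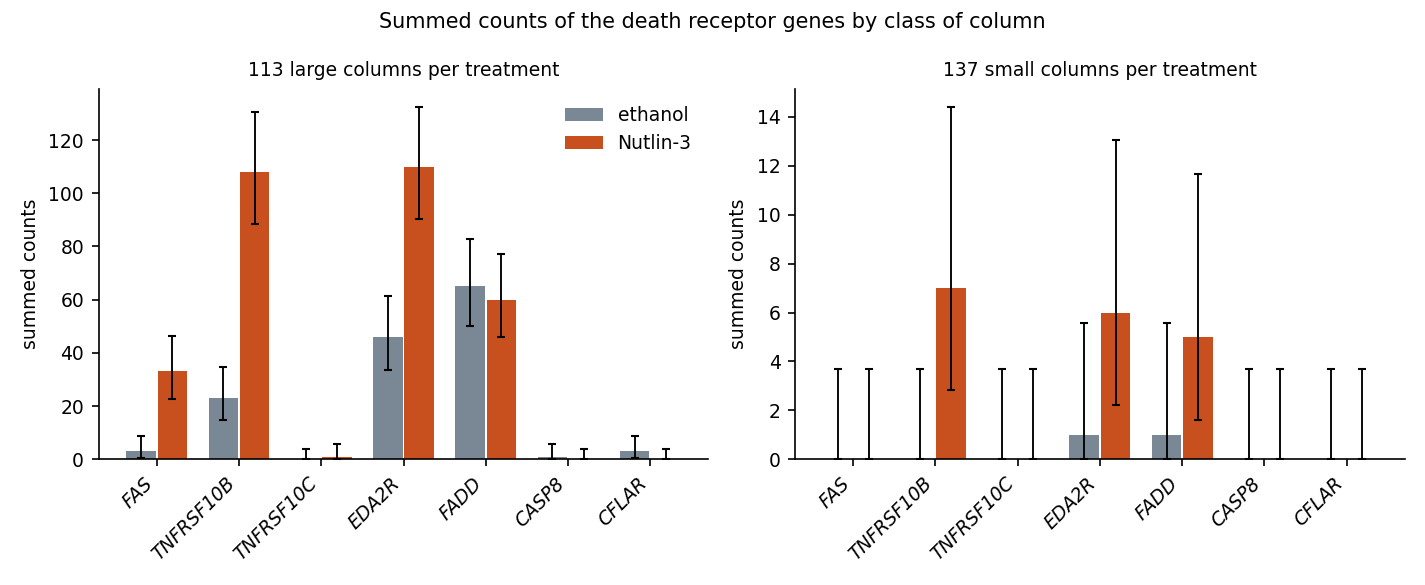
Summed counts of the 7 genes with a row in the large columns (left) and the small columns (right, on a smaller scale), ethanol in grey and Nutlin-3 in orange, with exact 95% Poisson intervals. In the large columns the intervals of FAS, TNFRSF10B and EDA2R are apart between treatments and those of FADD overlap.

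FAS, the receptor of FAS ligand (ENSG00000026103, chromosome 10, 88990582 to 89015785, plus strand, GRCh38), had 3 counts in ethanol (Poisson interval 0.619 to 8.77) and 33 in Nutlin-3 (22.7 to 46.3). Scaled to library size this was 25.4 CPM, counts per 1e6 human counts, against 2.23. FAS was 9.88-fold higher in Nutlin-3, with a counting interval from 3.56 to 57.9, or 3.30 (1.83 to 5.85) in log2. All counts came from large columns, in which FAS was seen in 3 of 113 (2.65%, exact binomial interval 0.551 to 7.56) in ethanol and 33 of 113 (29.2%, 21.0 to 38.5) in Nutlin-3. No column held more than 1 count of FAS. In the small columns FAS was seen in 0 of 137 in either treatment, at median totals of 871 and 830 counts. By 3 counts of the total this allows a share of up to 2.19% of columns with a count, and by the exact binomial limit 2.66%, which limits detection and not expression. Among 1209 genes whose summed count was at most 25% apart from its own, FAS had the fourth largest fold change. It entered this order only through its Nutlin-3 count, so the rank is a description and no support.

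The neighbour ACTA2 (ENSG00000107796, chromosome 10, 88935074 to 88991339, minus strand) overlaps the 5′ end of FAS by 758 bases. It was chosen after values had been seen. Its sums were 3 in ethanol and 69 in Nutlin-3, a log2 fold change of 4.36 (2.96 to 6.88), larger than that of FAS itself but with overlapping intervals. In the large columns 3 of 113 held it in ethanol and 65 in Nutlin-3. The 2 genes therefore went the same way from the same ethanol count, on opposite strands, around the half-site shown above. Their 3′ ends, which the library kit reads, lie apart, and whether counting used strand is not given in the sources used here. In the large Nutlin-3 columns FAS and ACTA2 were seen together in 16, where the product of their shares gives 18.98. STAMBPL1, which starts 111 kb before FAS, had 62 and 43 counts, with an interval that held 0 (-1.08 to 0.10). The cause of the shared direction was not tested.

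TNFRSF10B, the DR5 receptor of TRAIL (ENSG00000120889, chromosome 8, 23020133 to 23069179, minus strand), had 23 counts in ethanol (14.6 to 34.5) and 115 in Nutlin-3 (94.9 to 138), or 17.1 against 88.4 CPM. In log2 it was 2.34 (1.71 to 3.08) higher, the second largest value of the 8844 genes that averaged 50 CPM or more. Its own mean, 52.8 CPM, was just above that cut. Among 2232 genes whose summed count was at most 25% apart from its own, it ranked 4 by fold change. The part of the ethanol count in these orders was not tested. Large columns gave 23 and 108 counts, in log2 2.25 (1.61 to 2.99). Small columns gave 0 and 7. Against the limit of 3 counts over the ethanol pool, TNFRSF10B was at least 2.56-fold higher in the small Nutlin-3 columns. Both classes of column thus had more counts of TNFRSF10B in Nutlin-3, in the small class with overlapping intervals.

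Of the 113 large columns TNFRSF10B was seen in 23 in ethanol (20.4%, 13.4 to 28.96) and 102 in Nutlin-3 (90.3%, 83.2 to 95.04). Of those 102 columns 97 held exactly 1 count, 4 held 2 and 1 held 3. Poisson counts of the same mean, 0.956 per column, would leave 43.5 columns at 0, and 11 were at 0. The ratio of variance to mean was 0.175, near the median of 0.1498 over 6045 genes with a like mean. In ethanol, where the mean was 0.204, the ratio was 0.804. TNFRSF10B thus had 1 count in nearly every large Nutlin-3 column and few had more, as was usual for genes at this level.

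The TRAIL decoy TNFRSF10C (ENSG00000173535, chromosome 8, 23102590 to 23117437) starts 33.4 kb from TNFRSF10B and had 0 counts in ethanol against 1 in Nutlin-3. Both sums lie under the limit of 3 counts, which is 2.23 CPM in ethanol and 2.31 in Nutlin-3, so no fold is given. Other genes near TNFRSF10B had like counts in both pools. RHOBTB2, CHMP7 and R3HCC1 had 42, 64 and 78 counts in ethanol and 48, 72 and 81 in Nutlin-3, each with an interval that held 0. RHOBTB2 overlaps TNFRSF10B by 67 bases on the other strand. The last 500 bases of the TNFRSF10B transcripts matched 2 other genes at 95% identity over 50 bases, neither of them a receptor.

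EDA2R (ENSG00000131080, chromosome X, 66595637 to 66639298, minus strand) had 47 counts in ethanol (34.5 to 62.5) and 116 in Nutlin-3 (95.9 to 139), or 35.0 against 89.2 CPM. Its log2 fold change was 1.34 (0.85 to 1.87), the seventh largest of the same 8844 genes. Among 2931 genes whose summed count was at most 25% apart from its own, EDA2R ranked 5. Large columns gave sums of 46 and 110, in log2 1.29 (0.79 to 1.83). In small columns it had 1 and 6 counts, and the interval held 0 (-0.32 to 8.24). EDA2R was seen in 46 of the large ethanol columns (40.7%, 31.6 to 50.4) and 105 of the large Nutlin-3 columns (92.9%, 86.5 to 96.9). In Nutlin-3 101 columns held 1 count, 3 held 2 and 1 held 3, with a ratio of variance to mean of 0.137. Of all 14830 genes 4701, or 31.7%, were in at least 100 large Nutlin-3 columns, so the like numbers of columns of TNFRSF10B and EDA2R are no measure of a like level.

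**Figure D2:**
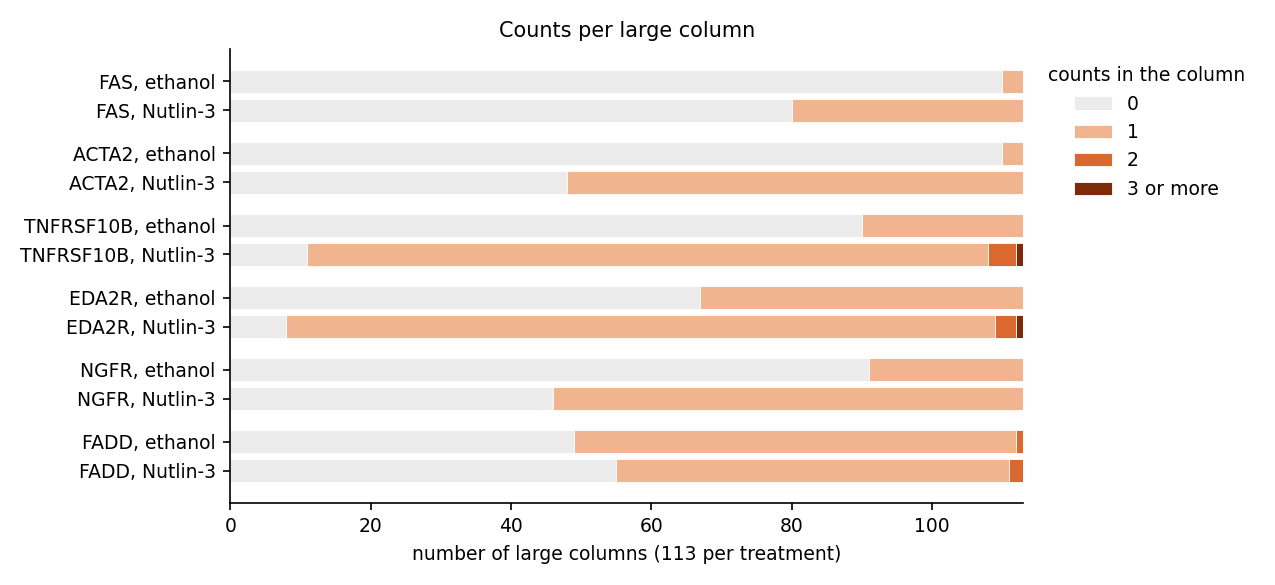
Number of large columns, of 113 per treatment, that held 0, 1, 2 or 3 or more counts of each gene. FAS, ACTA2 and NGFR never exceed 1 count, and TNFRSF10B and EDA2R fill 102 and 105 of the Nutlin-3 columns, nearly all at 1 count.

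How the 3 receptors fell together on columns was counted in the large class. In ethanol 54 of 113 columns held none of FAS, TNFRSF10B and EDA2R, 46 held 1 and 13 held 2. In Nutlin-3 3 columns held none, 9 held 1, 72 held 2 and 29 held all 3. TNFRSF10B and EDA2R were seen together in 97 Nutlin-3 columns, where the product of their shares gives 94.8, and in 11 ethanol columns, where it gives 9.36. FAS and TNFRSF10B shared 32 Nutlin-3 columns, where it gives 29.8. TNFRSF10B and EDA2R were in 102 and 105 of the 113 Nutlin-3 columns, so their overlap there could hardly differ from the product. The 11 Nutlin-3 columns without TNFRSF10B had a lower median total, 7576 counts against 10770, and the part of depth in these overlaps was not tested.

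FADD, the adaptor between receptor and caspase (ENSG00000168040, chromosome 11, 70203163 to 70207390, plus strand), had 66 counts in ethanol (51.0 to 84.0) and 65 in Nutlin-3 (50.2 to 82.8). Its log2 fold change was 0.02 (-0.49 to 0.54), which in fold is an interval from 0.711 to 1.45. FADD was seen in 64 large columns in ethanol (56.6%, 47.0 to 65.9) and 58 in Nutlin-3 (51.3%, 41.7 to 60.8). Small columns held 1 and 5 counts. An antisense gene, AP000879.1, overlaps FADD and matches the end of its transcript over 333 bases. It had 1 and 5 counts of its own.

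CASP8, the initiator caspase (ENSG00000064012, chromosome 2, 201233443 to 201287711, plus strand), had 1 count in ethanol and 0 in Nutlin-3. CFLAR (ENSG00000003402, chromosome 2, 201116104 to 201176687, plus strand) had 3 and 0. All 4 counts came from large ethanol columns. With 0 of 113 large Nutlin-3 columns, 3 counts of the total allow a share of up to 2.65% of columns with a count for either gene, and the exact binomial limit is 3.21%. This limits detection and not expression. None of these sums exceeds the limit of 3 counts, so no fold is given, and a difference between treatments was not detectable at this depth.

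CFLAR and CASP8 start 117 kb apart, with CASP10 between them, which was not analysed here. The protein-coding genes that start within 250 kb of CASP8 were then listed, after the CASP8 counts were known. NDUFB3, a subunit of respiratory complex I, had 158 counts in ethanol against 148 in Nutlin-3. FAM126B had 104 and 89, STRADB 93 and 84, and TRAK2 108 and 101. All 4 intervals of the fold change held 0. ALS2CR12, between CASP8 and STRADB, had 1 and 3 counts. The genes on both sides of CFLAR and CASP8 were therefore counted in both pools. Among the genes with a row, the low counts lay on CFLAR, CASP8 and ALS2CR12, which says nothing of CASP10. The last 500 bases of CASP8 transcripts matched 15 other genes at 95% identity over 50 bases, with a longest match of 120 bases, and those of CFLAR 10, with a longest of 95. The part of these matches in the low counts was not tested. Counts are not corrected for transcript length and are not ranked between genes here.

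**Figure D3:**
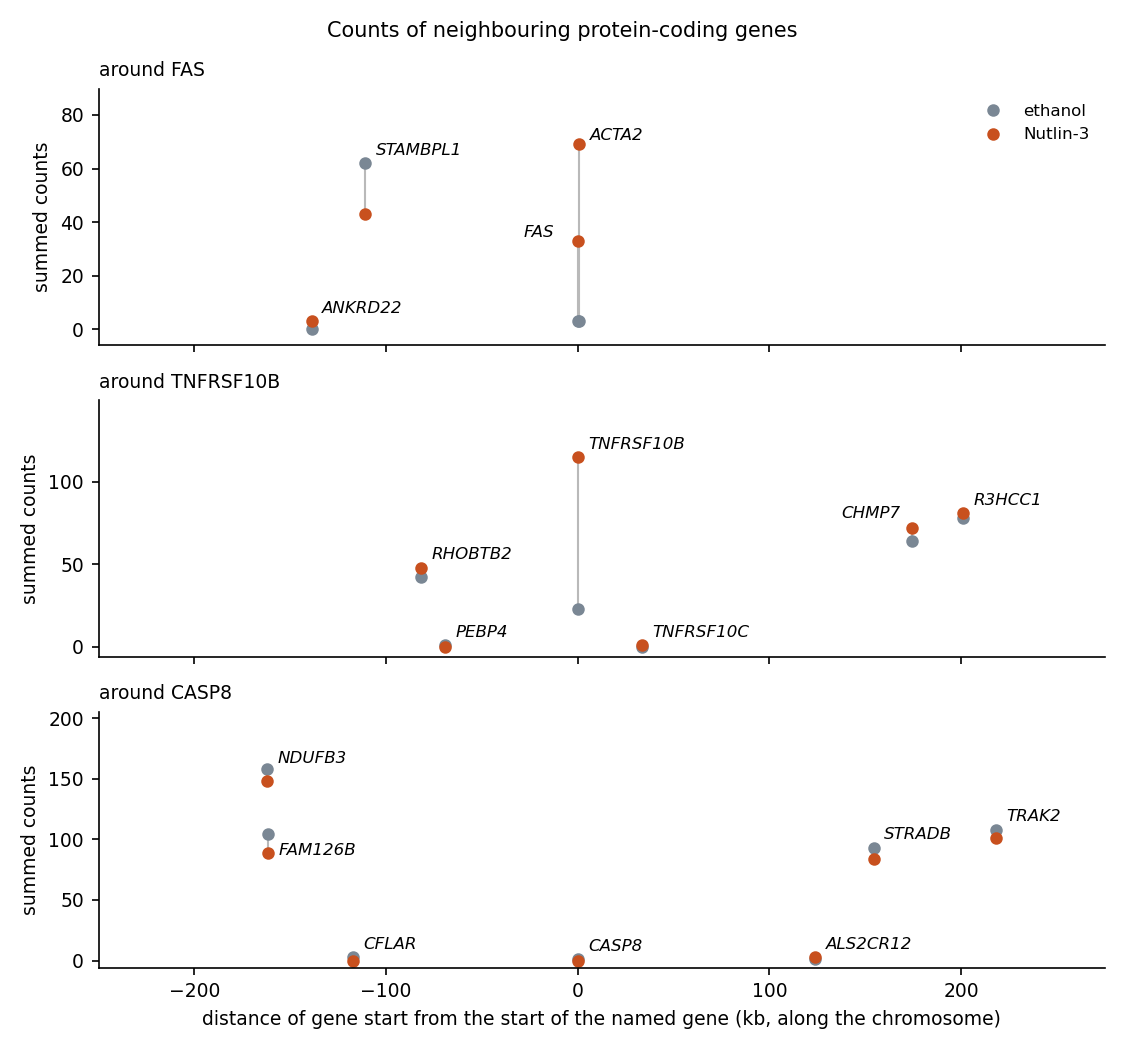
Summed counts in ethanol (grey) and Nutlin-3 (orange) of protein-coding genes with a row that start within 250 kb of FAS, TNFRSF10B or CASP8, by distance in kb, each panel on its own scale. FAS and ACTA2 start 0.757 kb apart and are both higher in Nutlin-3, and CASP8 and CFLAR lie near 0 between counted genes.

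The rest of the pathway was taken from lists of 61 ligands, receptors, adaptors, caspases and inhibitors. A row was found for 46 of them, 34 of which passed the filter, and the median of those 34 in log2 was -0.03. A log2 fold change of at least 1 was reached by 1 gene, against 3.14% of all genes, and one of at most -1 by 0. The counting interval lay above 0 for 4 genes, against 4.55% of all genes, and below 0 for 2, against 3.57%. The shares with an interval above 0 and below 0 were both larger than over all genes, from these 4 and 2 genes, and were not tested.

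The gene past 1 was NGFR, the p75 neurotrophin receptor, which also has a death domain. It had 22 counts in ethanol against 67 in Nutlin-3, in log2 1.63 (0.94 to 2.42), all from large columns, 22 of 113 and 67 of 113. TNFRSF21 (DR6), another receptor with a death domain, had 104 and 107 counts, in log2 0.09 (-0.32 to 0.49). TNFRSF1A, the main receptor of TNF, did not pass the filter, with 1 and 9 counts, with a log2 value of 2.71 (0.36 to 8.67). The interval of NGFR thus lay wholly above that of TNFRSF21, a difference that was not tested. Their ethanol counts were unlike, 22 and 104, and few genes had a mean over 2 per large column. The part of this in the difference was not tested either.

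Ligands were scarcely counted. TNFSF15 (TL1A) had 0 counts in ethanol against 8 in Nutlin-3. Against the limit of 3 counts for the 0 this was 2.75-fold higher, which leaves out the counting error of the 8. TNF had 1 and 2 and EDA, the ectodysplasin gene, 1 and 1. The other 5 ligands of the list, FASLG and TNFSF10 (TRAIL) among them, were not analysed here.

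Of 12 adaptors and kinases past the filter, 1 had an interval above 0 and 2 below, with a median of -0.15, where 4.55% and 3.57% of all genes had one. PIDD1, a death domain protein that joins caspase 2 in the PIDDosome, had 57 and 104 counts, in log2 0.91 (0.43 to 1.41). CRADD (RAIDD), the adaptor between PIDD1 and caspase 2, had 70 and 44, a value of -0.62 (-1.20 to -0.06). TRAF2, which links TNF receptors to NF-kappaB and JNK signalling, had 79 and 53, a value of -0.53 (-1.06 to -0.01). The highest sums were those of MAP3K7 (TAK1), 134 and 118, and of the caspase 8 associated CASP8AP2, 125 and 124, both with intervals that held 0.

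Of 9 caspases and substrates past the filter only CASP9, the initiator caspase of the apoptosome, had an interval off 0, and it lay above, as for 4.55% of all genes. It had 23 and 40 counts, in log2 0.83 (0.07 to 1.65). Caspase 2, the partner of the PIDDosome, had 143 and 142 counts, in log2 0.04 (-0.31 to 0.38). The highest sums, of PARP1 with 204 and 176 and of DFFA with 176 and 178, had intervals that held 0, as did that of CASP6. BID, which caspase 8 cleaves to reach the mitochondrion, had 135 and 128 counts.

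Of 11 inhibitors past the filter 1 had an interval off 0, on the higher side, as did 4.55% of all genes. FAIM2, a neuronal inhibitor of FAS signalling, had 66 and 102 counts, in log2 0.67 (0.21 to 1.14). The highest sums were those of BIRC5 (survivin), 188 and 158, and TAX1BP1, 155 and 168, with intervals that held 0. XIAP, a direct inhibitor of caspases, had 131 and 124 counts.

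**Figure D4:**
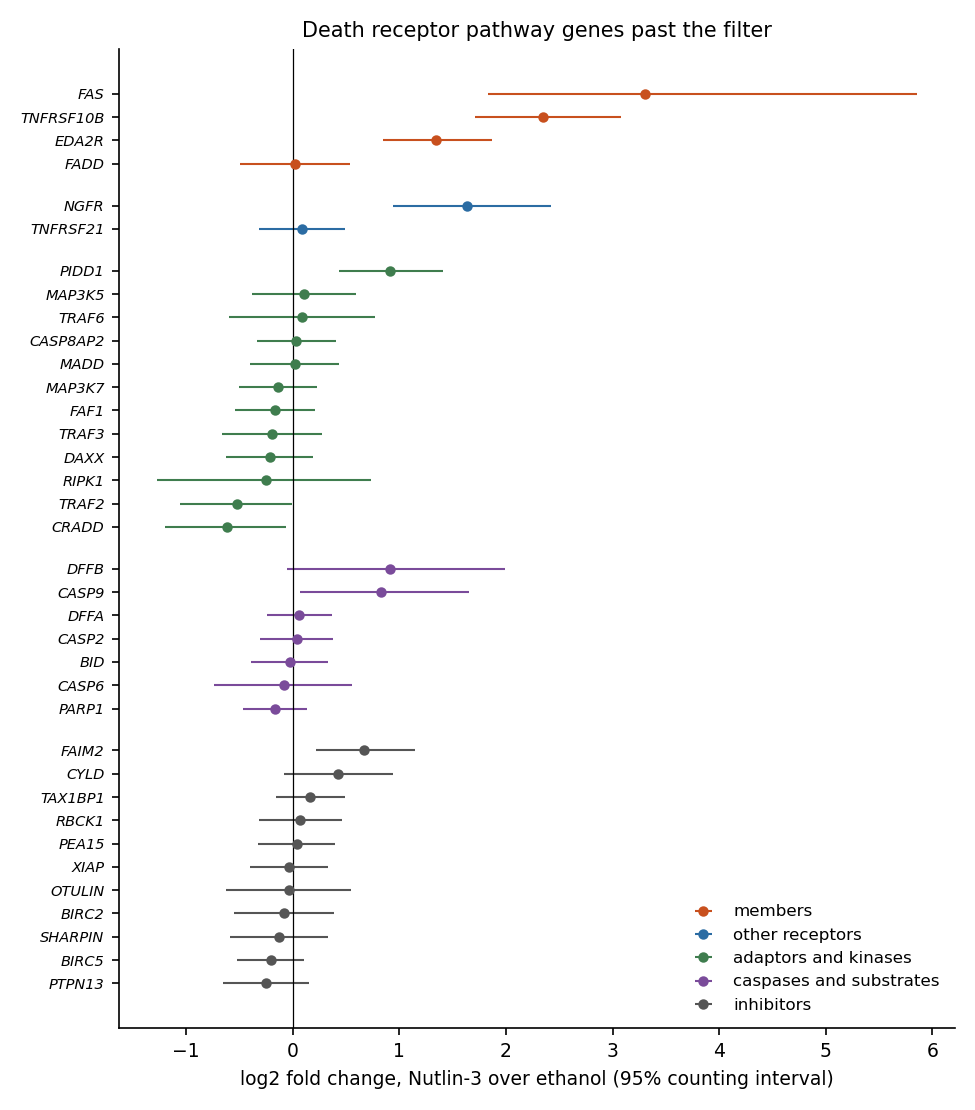
Log2 fold change (Nutlin-3 against ethanol) with its 95% counting interval for the 4 members past the filter and for other pathway genes past it, by role, with 2 of the 34 not shown. FAS, TNFRSF10B, EDA2R and NGFR lie furthest right, and most adaptors, caspases and inhibitors hold 0.

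**Figure D5:**
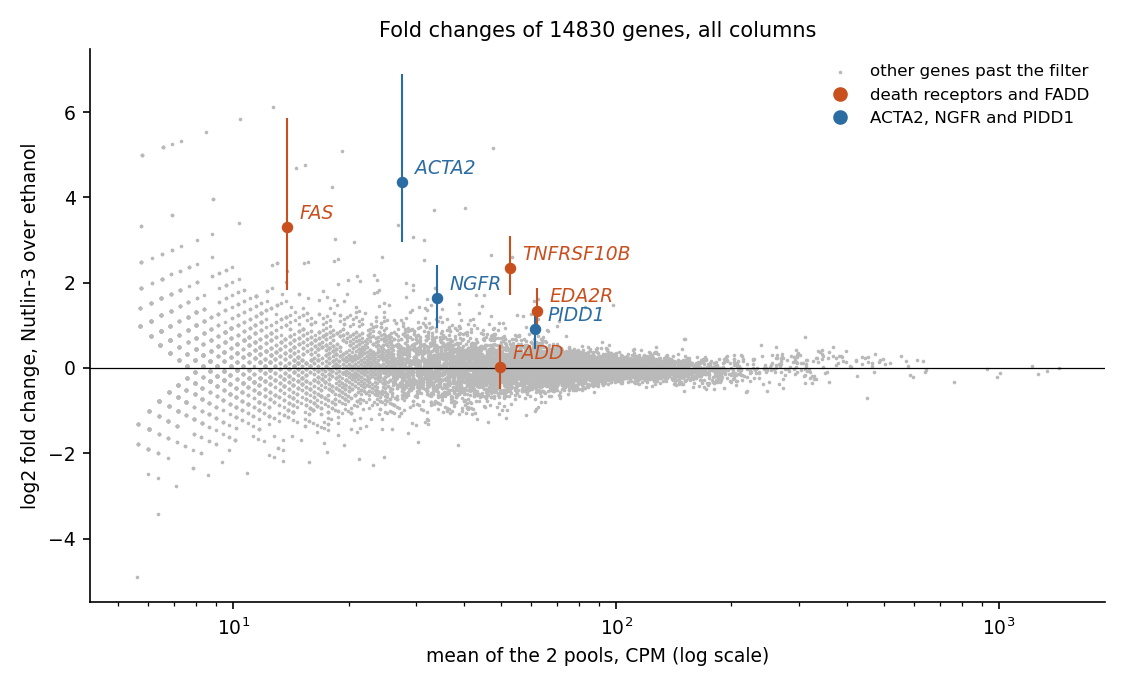
Log2 fold change against the mean of both pools in CPM (log axis) for the 14830 genes past the filter (grey), with FAS, TNFRSF10B, EDA2R and FADD in orange and ACTA2, NGFR and PIDD1 in blue, bars being 95% counting intervals. TNFRSF10B and EDA2R stand above most genes of their level, and FADD lies at 0.02.

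The genes most like TNFRSF10B were sought among the same 8844 genes, by the distance between pairs of log2 fold changes in large and small columns. The nearest 3 were FDXR, a mitochondrial ferredoxin reductase, with 41 counts in ethanol and 119 in Nutlin-3, CDKN1A, the gene of p21, with 70 and 188, and PLK3, a Polo-like kinase, with 44 and 101. Their log2 fold changes in large columns were 1.43, 1.13 and 1.11, beside 2.25 for TNFRSF10B. They had 40, 67 and 44 counts in the large ethanol columns against its 23. The part of this difference in the fold changes was not tested, and the values are not ranked. In small columns TNFRSF10B and PLK3 had 0 counts in ethanol, so their distance depends on the 0.5 counts added, and likeness over 4 sums is a description only.

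Columns were also thinned to 700 counts, which removes differences in depth, in 1 random draw. At that depth TNFRSF10B was seen in 2 of 194 ethanol columns (1.03%, 0.125 to 3.67) and 11 of 187 Nutlin-3 columns (5.88%, 2.97 to 10.3). EDA2R gave the same numbers in this draw, though unthinned it was seen in 18.8% of ethanol columns against 9.20% for TNFRSF10B. FAS was seen in 1 and 2 columns and FADD in 3 and 5, while TNFRSF10C, CASP8 and CFLAR were seen in none, which allows up to 1.55% in ethanol and 1.60% in Nutlin-3. The intervals of TNFRSF10B and EDA2R overlapped only at their edges and those of FAS and FADD widely, and the difference was not tested, since columns are not replicates. Unthinned, TNFRSF10B was seen in 9.20% of the 250 ethanol columns and 43.6% of the Nutlin-3 ones, whose median depths were 2287 and 2010.5 human counts. The line holds no cell type that should lack these genes, so a background from free RNA could not be measured.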

How the data were processed

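The authors deposited 1 table of counts, whole numbers per gene and column with no normalization, for NGP cells on the ddSeq device with the SureCell WTA 3′ kit, per the labels' protocols. Aligner, build, annotation, strandedness, use of molecular tags and cell filter were not given in the sources used here. Columns named treated were taken as Nutlin-3 and columns named untreated as ethanol, and 0 columns were left out. No doublet caller was run and doublets were not removed here. Identifiers were matched to GENCODE release 29 (GRCh38) for 25602 of 25693 genes. That build need not be the authors' own.

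Counts were summed over 250 columns per treatment without ERCC species. Scaling used TMM factors of edgeR 4.0.16 in R 4.3.3, and its low-count filter with a minimum of 10. Log2 fold changes had 0.5 counts added, with intervals from the exact binomial share (SciPy 1.17.1). The count test planned for libraries could not be run with 1 pool per treatment. Intervals cover counting error only, and take counts as independent molecules. The step was run on simulated Poisson counts, the form that the intervals assume. That run therefore cannot show how well the intervals hold for the real columns. In the large Nutlin-3 columns the ratio of variance to mean was 0.175 for TNFRSF10B and 0.137 for EDA2R, below that of Poisson counts. Counts there thus did not have the assumed form, and what this does to the intervals was not tested. Transcript ends were compared with BLAST 2.17.0.

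Large columns had over 4000 counts. Alternatives were DESeq2 1.42.0 size factors, ERCC scaling, each class of columns, shared names, 1 added count, columns in place of counts, no filter, and thinning to 350 or 700 counts. All members were named. Of other lists, genes past 2-fold, genes with an interval off 0 and the 2 highest sums per list were named, with some examples chosen after their values were seen. ACTA2 and the neighbours of CASP8, FAS and TNFRSF10B were also chosen after seeing values. A fold against a pool at 0 counts, and a list with 0 genes past the filter, were given no value among the alternatives. Single values of 2 listed genes are not reported here. Members, lists and settings were chosen with earlier results of these data known.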

Additional observations from a re-analysis of the deposited data

How the results depend on the processing

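Of 26 log2 fold changes of FAS, TNFRSF10B, EDA2R and FADD under alternatives, 24 stayed within the first counting interval. Apart from the small columns, these settings reused all or most of the same counts, so this is no independent check. FAS kept its 33 and 3 counts in large columns and in columns with shared names. The small columns alone moved EDA2R to 2.25 and FADD to 2.01, from 7 and 6 counts, and could give none for FAS and TNFRSF10B or for the list of members. FADD was -0.07 in large columns and -0.44 with ERCC counts as library size, where the median of all genes was -0.47. That scaling mixes 2 dilutions in unknown shares. It put FAS at 2.84, TNFRSF10B at 1.87 and EDA2R at 0.87, so that 2 members reached 1. For the other pathway genes it gave a median of -0.50 and 2 genes at or below -1. Without the filter 4 members reached 1 and 2 lay at or below -1, through TNFRSF10C, CASP8 and CFLAR with 1, 1 and 3 counts in all, and of the other pathway genes 6 and 2 did.

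The share of columns followed depth. Without thinning it was 13.2% for FAS in Nutlin-3, 9.20% and 43.6% for TNFRSF10B in ethanol and Nutlin-3, 18.8% and 44.4% for EDA2R, and 26.0% and 25.2% for FADD. Thinned to 700 counts, small columns alone gave 0% for all 4 genes in ethanol and for FAS and FADD in Nutlin-3, and 2.70% for TNFRSF10B and EDA2R. At 350 counts FAS was at 0% in ethanol and EDA2R at 2.16% in Nutlin-3. At this depth EDA2R was seen in 3 of 241 ethanol columns and 5 of 231 Nutlin-3 columns. TNFRSF10B was seen in 3 and 7 of them, FADD in 1 and 3 and FAS in 0 and 1. The intervals of the 2 treatments overlapped for all 4 genes. So few columns do not set the receptors apart from FADD, and the difference was not tested.

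No paired analysis was possible because the columns name no library or dilution. For the same reason edgeR and DESeq2 tests and leaving out a library were not run.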
